A study of Mus musculus with 4 samples.

Results

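The 39 Hox cluster genes were the symbols of the mouse count table that consist of Hox, a cluster letter from a to d and a paralog number, out of 23377 symbols in all. They were read in bulk polyadenylated RNA of cancer-associated fibroblasts (CAFs), the fibroblasts within a tumour, in 4 libraries. The libraries titled RES4 (2 replicates) carry the phenotype label of CAFs associated with resistant tumour, and those titled WTA (2 replicates) that of CAFs associated with normal tumour. They are called RES4 CAFs and WTA CAFs below. The labels give no strain, genotype, sex, age, treatment, sort or gate. They describe a TruSeq and a SMART-seq2 preparation without saying which library had which, so a difference in preparation cannot be told apart from the group. Both replicates of a group share 1 title stem and may come from 1 tumour or culture, in which case the p-values describe only how far repeated libraries of it spread. In bulk RNA, fewer cells of a type and less RNA per cell cannot be told apart.

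Hox genes encode homeodomain transcription factors and lie in 4 clusters, HoxA on chromosome 6, HoxB on chromosome 11, HoxC on chromosome 15 and HoxD on chromosome 2. Within a cluster the genes stand in the order of their paralog numbers, and low numbers are used towards the head and high numbers towards the tail and the ends of the limbs. Genes that share a number in different clusters are paralogs with similar homeodomains. Fibroblasts grown from different parts of the body are known to keep different sets of active Hox genes in culture.

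RefSeq promoter sequences (GRCm38.p6, from 250 bases before to 50 bases after the start) were available for 22 of the 39 genes. Among the Hox genes called different between the groups these were Hoxa9 and Hoxc4, higher in RES4 CAFs, and Hoxb4 and Hoxb8, lower in them. They are shown so that the start regions of genes called in opposite directions can be set side by side, 5′ to 3′ on the gene's strand. The windows are chr6:52227321-52227620 (minus strand) for Hoxa9, chr15:103034145-103034444 (plus strand) for Hoxc4, chr11:96318017-96318316 (plus strand) for Hoxb4 and chr11:96281655-96281954 (plus strand) for Hoxb8. Capitals mark a match to TGATNNAT, the composite site of a PBX and a HOX protein, or to TAATTA, the core that many homeodomains bind, each searched on both strands.
Hoxa9: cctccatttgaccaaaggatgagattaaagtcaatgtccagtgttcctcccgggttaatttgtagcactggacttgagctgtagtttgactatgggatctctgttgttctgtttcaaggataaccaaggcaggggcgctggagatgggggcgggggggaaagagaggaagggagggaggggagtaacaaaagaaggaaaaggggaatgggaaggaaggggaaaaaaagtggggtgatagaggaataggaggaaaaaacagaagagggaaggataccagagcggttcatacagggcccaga
Hoxc4: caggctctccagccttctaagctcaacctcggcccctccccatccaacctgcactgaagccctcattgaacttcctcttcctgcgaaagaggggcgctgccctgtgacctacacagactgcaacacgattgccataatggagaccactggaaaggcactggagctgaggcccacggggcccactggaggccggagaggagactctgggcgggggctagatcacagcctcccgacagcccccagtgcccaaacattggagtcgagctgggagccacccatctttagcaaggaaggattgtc
Hoxb4: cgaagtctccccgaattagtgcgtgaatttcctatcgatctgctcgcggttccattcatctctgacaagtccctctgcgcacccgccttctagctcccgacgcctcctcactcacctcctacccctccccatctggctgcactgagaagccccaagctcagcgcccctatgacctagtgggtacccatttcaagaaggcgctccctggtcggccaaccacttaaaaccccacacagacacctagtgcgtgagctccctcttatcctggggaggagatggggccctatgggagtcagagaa
Hoxb8: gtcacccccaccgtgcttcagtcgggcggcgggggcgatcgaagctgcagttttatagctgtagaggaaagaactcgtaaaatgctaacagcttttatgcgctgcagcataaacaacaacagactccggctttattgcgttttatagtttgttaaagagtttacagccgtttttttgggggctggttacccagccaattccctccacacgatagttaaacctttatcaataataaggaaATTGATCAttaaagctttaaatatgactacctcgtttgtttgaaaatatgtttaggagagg
TGATNNAT occurred in 1 of these windows, that of Hoxb8, where the match reads on the opposite strand, and TAATTA in 0 of them, so no matches overlapped. Over the 24 Hox windows, TGATNNAT occurred in 4 (16.7%) and TAATTA in 2 (8.33%), beside 8.85% and 5.29% of all 32851 RefSeq windows of 300 bases. The 24 windows cover 22 genes, and the 2 windows with TAATTA are both of Hoxd11, so they stand for 1 gene. The Hox windows had a median of 14.5 CG dinucleotides, against 7 in all windows. The windows of Hoxa9 and Hoxc4 had 4 and 9, and those of Hoxb4 and Hoxb8 had 14 and 13.

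All Hox genes together took 643 and 635 of 2845237 and 2785936 reads in RES4 CAFs and 655 and 1341 of 3948066 and 5558541 reads in WTA CAFs. Their summed level was 245 and 233 CPM in RES4 and 162 and 226 CPM in WTA CAFs, where CPM is counts per 1000000 reads, with library sizes scaled by TMM, the trimmed mean of M-values. Of the 39 genes, 33 had at least 1 read, 18 passed the filter on low counts and were tested, and 15 had reads but stayed below the filter. Hoxa11, Hoxa13, Hoxb1, Hoxd1, Hoxd12 and Hoxd13 had no read in any library, which allows up to 3 reads each, or 0.505 to 1.14 CPM in a library. That counting limit and the intervals below cover counting error only, since reads carried no molecular identifiers. Fold values given below as at least set the observed counts of 1 group against 3 counts over the other. They leave out the counting error of the observed counts, so they are not confidence limits and cannot be compared with the intervals.

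The called genes of HoxB and HoxC lay in opposite directions. Those of HoxB were lower and those of HoxC higher in RES4 CAFs, with Hoxb2 and Hoxb8 almost or wholly without reads there and Hoxc10 the Hox gene with most reads. HoxA had 1 called gene, Hoxa9, which was higher, and HoxD reads were few and lay mostly in RES4 CAFs. Of the 18 tested genes, 5 were called higher and 5 lower at a Benjamini-Hochberg adjusted p under 0.05 in edgeR's quasi-likelihood test. Of all 12001 genes tested, 29.4% were called in either direction, 15.5% higher and 13.9% lower. By cluster, 1 of 4 tested HoxA genes rose, 5 of 7 HoxB genes fell and 4 of 7 HoxC genes rose, and no HoxD gene reached the test. The group ranges of CPM were apart in 6 tested genes that were higher and 7 that were lower in RES4 CAFs, beside 31.9% and 32.9%, or 64.7% together, of all genes tested. The median log2 fold change over the tested HoxB genes was -1.72, over the tested HoxC genes 2.06 and over the tested HoxA genes 0.21, beside 0.00 over all genes tested (-0.14 with library totals alone as scaling). These medians and counts cover only genes that passed the filter, and 6 of the 18 passed it through 1 group alone. Among them, Hoxb2, Hoxb4 and Hoxb8 passed through the WTA libraries, and Hoxc4 and Hoxc5 through the RES4 libraries, so that a difference was built into their selection.

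**Figure D1:**
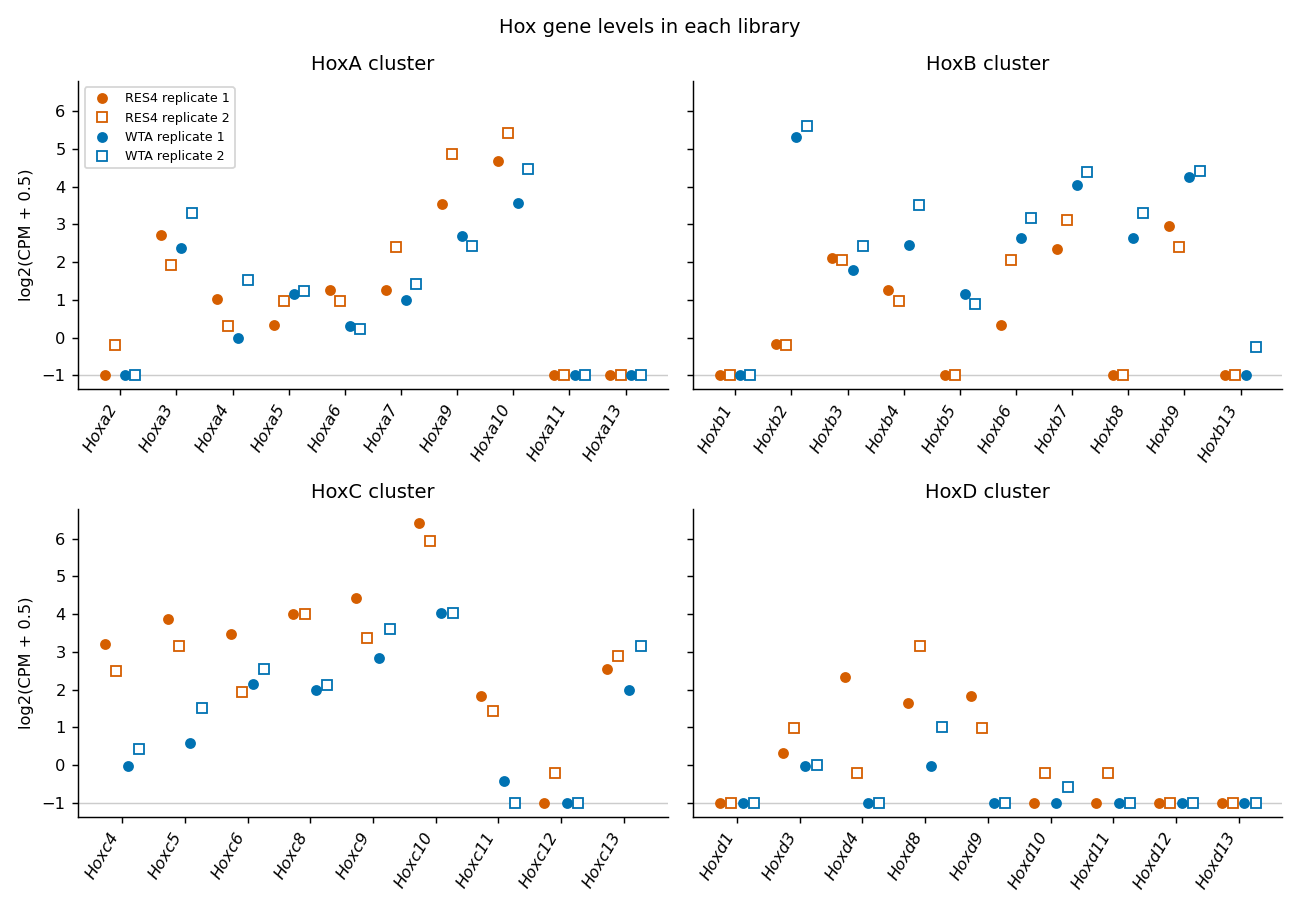
Level of 38 Hox genes as log2(CPM + 0.5) in every library, by cluster; orange marks RES4 and blue WTA CAFs, circles replicate 1 and squares replicate 2, and the grey line is 0 CPM. In the HoxB panel the blue points stand above the orange ones for Hoxb2, Hoxb4, Hoxb7, Hoxb8 and Hoxb9, and in the HoxC panel the orange points stand above for Hoxc4, Hoxc5, Hoxc8 and Hoxc10.

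Shares within the Hox reads do not depend on how libraries are scaled. HoxB made up 7.62% (exact 95% binomial interval 5.69 to 9.95) and 9.45% (7.29 to 12.0) of the Hox reads in RES4 CAFs. In WTA CAFs it made up 58.5% (54.6 to 62.3) and 55.03% (52.3 to 57.7). HoxB was thus the largest cluster in both WTA libraries, while HoxC and HoxA each held more reads than HoxB in both RES4 libraries. HoxC held 66.9% (63.1 to 70.5) and 48.5% (44.6 to 52.5) in RES4 CAFs, against 21.7% (18.6 to 25.0) and 21.6% (19.4 to 23.9) in WTA CAFs. HoxA held 21.0% (17.9 to 24.4) and 36.7% (32.9 to 40.6) in RES4 CAFs, and 19.2% (16.3 to 22.5) and 22.4% (20.2 to 24.8) in WTA CAFs, so the groups overlapped. HoxD held 4.51% (3.04 to 6.41) and 5.35% (3.74 to 7.40) in RES4 CAFs and 0.611% (0.167 to 1.56) and 0.969% (0.517 to 1.65) in WTA CAFs. The shares of HoxB, HoxC and HoxD were apart between the groups, and those of HoxA and HoxC differed between the RES4 replicates beyond their counting intervals. With 2 libraries against 2, an exact two-sided permutation test of a share cannot go below p = 0.333, so the shares are given without a test.

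**Figure D2:**
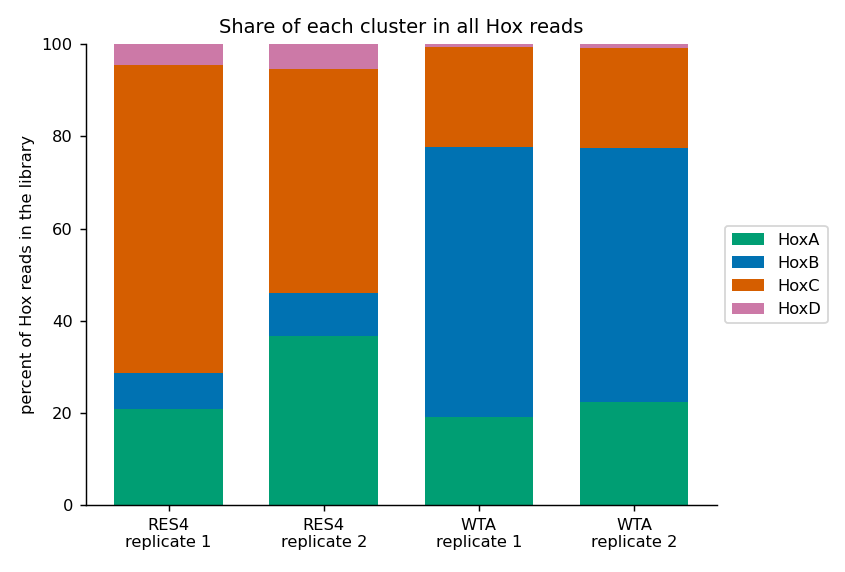
Stacked bars of the percent of all Hox reads in a library that fell in each cluster, with RES4 CAFs on the left and WTA CAFs on the right. HoxB takes 7.62% and 9.45% of the RES4 bars and 58.5% and 55.03% of the WTA bars, while HoxC takes 66.9% and 48.5% against 21.7% and 21.6%.

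In level, HoxB summed to 18.6 and 22.0 CPM in RES4 and 94.9 and 124 CPM in WTA CAFs, 5.39 times more in the WTA group by the group means. Without Hoxb2 the sums were 18.3 and 21.7 CPM in RES4 and 55.5 and 76.2 CPM in WTA CAFs, still apart. HoxC summed to 164 and 113 CPM in RES4 and 35.2 and 48.6 CPM in WTA CAFs, a ratio of group means of 3.30. Without Hoxc10 the HoxC sums were 78.4 and 51.8 CPM in RES4 and 19.3 and 32.7 CPM in WTA CAFs, so the direction did not rest on that gene. HoxD summed to 11.0 and 12.5 CPM in RES4 and 0.991 and 2.19 CPM in WTA CAFs.

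Hoxb2, which patterns the hindbrain and the neural crest cells that leave it, had 1 and 1 reads in RES4 CAFs and 159 and 285 reads in WTA CAFs. This was 0.380 and 0.367 CPM in RES4 and 39.4 and 48.0 CPM in WTA CAFs, so the groups were far apart. The ratio of pooled counts per scaled library size, WTA over RES4, was 119 with an exact 95% counting interval of 32.8 to 986. Its edgeR adjusted p was 1.89e-05, and it was called lower in all 9 alternatives. In the GRCm38 GENCODE annotation 27.3% of the exonic bases of Hoxb2 are shared with the antisense gene Hoxb3os, and neither preparation described in the labels is known to keep strand.

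Hoxb8, used in the trunk and known in mouse also for a role in microglia and grooming, had no read in either RES4 library. WTA CAFs had 23 and 55 reads, or 5.70 and 9.26 CPM. With its WTA counts taken as observed, Hoxb8 had a level at least 13.9-fold lower in RES4 CAFs, computed against 3 counts over the RES4 group. Its edgeR adjusted p was 7.74e-04. It too was called in all 9 alternatives. Hoxb5 was likewise without reads in RES4 CAFs but had only 7 and 8 reads in WTA CAFs, below the filter, and was at least 2.68-fold lower. Hoxb6 and Hoxb7, which lie between Hoxb8 and Hoxb5, had reads in every library.

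Hoxb4, known for its effect on the self-renewal of blood stem cells, had 1.90 and 1.47 CPM in RES4 and 4.96 and 10.9 CPM in WTA CAFs. The groups were apart, and the log2 fold change was -2.24 ± 0.65 (SE) with an edgeR adjusted p of 0.0201. Hoxb7, often raised in human tumours, had 4.57 and 8.07 CPM in RES4 and 15.9 and 20.2 CPM in WTA CAFs, a log2 fold change of -1.51 ± 0.49 (edgeR adjusted p = 0.0349). Hoxb9, which acts with the other genes of number 9 in the thorax, had 7.23 and 4.77 CPM in RES4 and 18.6 and 20.9 CPM in WTA CAFs, a log2 fold change of -1.72 ± 0.47 (edgeR adjusted p = 0.0159). All 3 were detected in every library, so HoxB was not silent as a whole in RES4 CAFs. Their calls depended on single libraries or on the tool. In edgeR fits Hoxb4 missed the threshold on leaving out RES4 replicate 1 (-2.43, adjusted p = 0.0754), RES4 replicate 2 (-2.07, adjusted p = 0.118) or WTA replicate 2 (-1.57, adjusted p = 0.375), and likewise in DESeq2 (adjusted p = 0.0824), and its adjusted p ran from 0.00245 to 0.375 over the alternatives. Hoxb7 missed the threshold on leaving out RES4 replicate 1 (-1.16, adjusted p = 0.106), WTA replicate 1 (-1.73, adjusted p = 0.0680) or WTA replicate 2 (-1.35, adjusted p = 0.228) in edgeR, and likewise in DESeq2 (adjusted p = 0.0664), with a range of 0.00596 to 0.228. Hoxb9 missed the threshold in edgeR on leaving out RES4 replicate 2 (-1.45, adjusted p = 0.0583) or WTA replicate 2 (-1.67, adjusted p = 0.0972), with a range of 0.00158 to 0.0972.

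The other tested HoxB genes were not called. Hoxb6 had 2 and 10 reads in RES4 and 23 and 50 reads in WTA CAFs, a log2 fold change of -1.66 ± 0.67 (edgeR adjusted p = 0.0818). The group ranges were apart, and Hoxb6 was called lower with the replicate number as a block (edgeR adjusted p = 0.0297), with library totals alone, without the low-count filter and without RES4 replicate 2, over a range of 0.0278 to 0.432. Hoxb3 stood at 3.81 and 3.67 CPM in RES4 and 2.97 and 4.88 CPM in WTA CAFs, and its ranges overlapped. Its log2 fold change was -0.09 ± 0.56 (edgeR adjusted p = 0.922), and 52.9% of its exonic bases are shared with the antisense Hoxb3os. Hoxb13, the last gene of the cluster and known from the prostate, had 2 reads in WTA replicate 2 and none elsewhere.

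Hoxc10, a gene of the lumbar trunk and the hindlimb, was the Hox gene with most reads in RES4 CAFs. It had 224 and 167 reads in RES4 and 64 and 95 reads in WTA CAFs, or 85.2 and 61.3 CPM against 15.9 and 16.0 CPM. The lower RES4 library thus stood well above both WTA libraries, which differed little. The log2 fold change was 2.20 ± 0.40 with an edgeR adjusted p of 0.00114, and it was called higher in all 9 alternatives.

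Hoxc4 and Hoxc5, at the other end of the cluster and used in the neck and shoulder region, moved in the same direction as Hoxc10. Hoxc4 had 8.75 and 5.14 CPM in RES4 and 0.496 and 0.842 CPM in WTA CAFs, a log2 fold change of 3.26 ± 0.66 (edgeR adjusted p = 0.00254). It was called higher in all 9 alternatives. Hoxc5 had 14.1 and 8.44 CPM in RES4 and 0.991 and 2.36 CPM in WTA CAFs, a log2 fold change of 2.67 ± 0.59 (edgeR adjusted p = 0.00460). Hoxc8, which acts in the thorax and in the motor neurons of the forelimb, had 15.6 and 15.4 CPM in RES4 and 3.47 and 3.87 CPM in WTA CAFs, with replicates close together in both groups. Its log2 fold change was 2.06 ± 0.48 (edgeR adjusted p = 0.00614). In edgeR fits Hoxc5 missed the threshold on leaving out RES4 replicate 1 (2.26, adjusted p = 0.0506) or WTA replicate 1 (2.17, adjusted p = 0.0653), over a range of 8.21e-05 to 0.0653. Hoxc8 missed the threshold on leaving out WTA replicate 1 (1.93, adjusted p = 0.0752) or WTA replicate 2 (2.11, adjusted p = 0.0588), over a range of 3.77e-04 to 0.0752, although its fold change hardly moved. In the GRCm38 annotation 5.37% of the exonic bases of Hoxc5 are shared with a transcript of Hoxc10 on the same strand, so reads there could have been split or dropped by the authors' counting.

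Hoxc6, Hoxc9 and Hoxc13 were expressed in every library and not called. Hoxc6 had 10.7 and 3.30 CPM in RES4 and 3.96 and 5.39 CPM in WTA CAFs, and the RES4 replicates lay on either side of the WTA ones. Hoxc9 had 20.9 and 9.91 CPM in RES4 and 6.69 and 11.8 CPM in WTA CAFs, again overlapping. Their log2 fold changes were 0.56 ± 0.60 and 0.72 ± 0.51 (edgeR adjusted p = 0.535 and 0.333). Hoxc13, which drives hair and nail formation, had 5.33 and 6.97 CPM in RES4 and 3.47 and 8.42 CPM in WTA CAFs, with a log2 fold change of 0.02 ± 0.56 whose sign turned with library totals alone (-0.12). Whether the fold changes of called and uncalled HoxC genes differ from each other was not tested.

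Below the filter, Hoxc11, which works with the other genes of number 11 in the hindlimb, had 8 and 6 reads in RES4 and 1 and 0 reads in WTA CAFs. Its ratio of pooled counts was 26.1 with an exact 95% counting interval of 3.97 to 1103. Hoxc12 had a single library with a read, RES4 replicate 2, at 1 read.

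**Figure D3:**
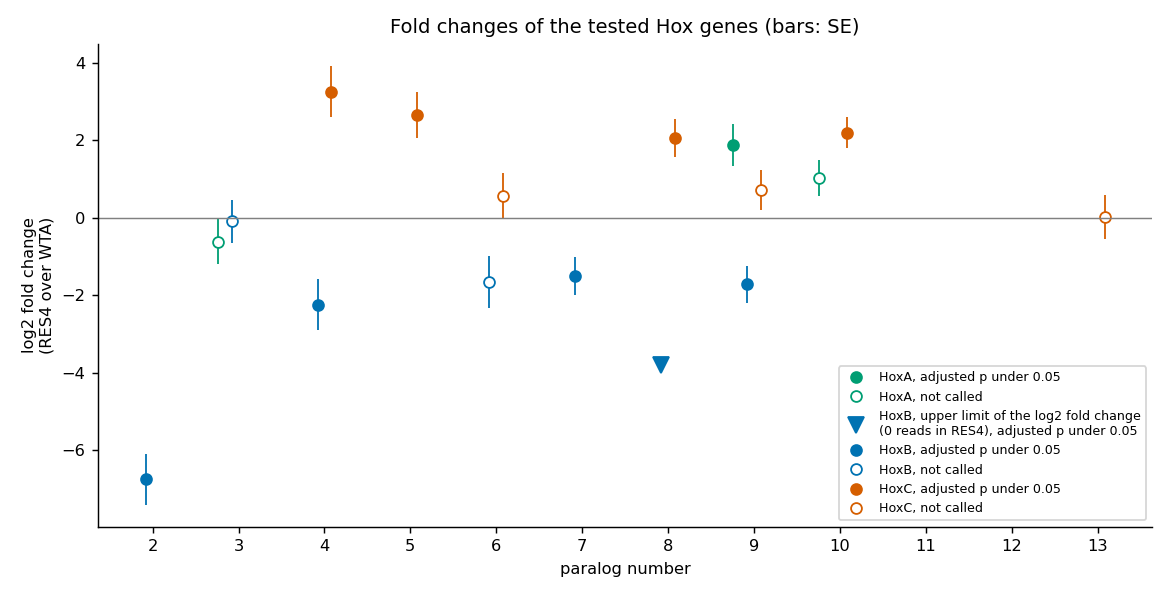
Log2 fold change, RES4 over WTA, of 17 tested Hox genes against paralog number. Bars are SE, and filled symbols were called at an edgeR adjusted p under 0.05. The triangle sets Hoxb8, which had no RES4 read, against 3 RES4 counts (-3.80), without the counting error of its WTA counts. The called HoxB genes lie between -6.75 and -1.51 and the called HoxC genes between 2.06 and 3.26.

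In HoxA, 1 of the 4 tested genes was called. Hoxa3, needed for the thymus and parathyroid, had 6.09 and 3.30 CPM in RES4 and 4.71 and 9.43 CPM in WTA CAFs, and its groups overlapped. Its log2 fold change was -0.61 ± 0.57 (edgeR adjusted p = 0.470), and it was not called in any of the 9 alternatives. Hoxa9, best known from blood progenitors and leukaemia, had 11.0 and 28.6 CPM in RES4 and 5.95 and 4.88 CPM in WTA CAFs. The RES4 replicates differed from each other by more than the lower one differed from the WTA libraries. Its log2 fold change was 1.88 ± 0.54 (edgeR adjusted p = 0.0193). In edgeR fits it was 1.03 (adjusted p = 0.178) without RES4 replicate 2, and it missed the threshold on leaving out WTA replicate 1 (1.96, adjusted p = 0.0562) or WTA replicate 2 (1.71, adjusted p = 0.121), over a range of 0.00123 to 0.178. In the GRCm38 annotation the microRNA gene Mir196b takes 1.52% of the exonic bases of Hoxa9. It was counted under its own symbol at 2 and 1 reads in RES4 and 1 and 0 reads in WTA CAFs.

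Hoxa10, known from the uterus and the hindlimb, was the HoxA gene with most reads, at 25.1 and 42.2 CPM in RES4 and 11.4 and 21.4 CPM in WTA CAFs. The group ranges were apart by a narrow margin, and the log2 fold change of 1.03 ± 0.46 was not called (edgeR adjusted p = 0.120). With the replicate number as a block it was called higher (1.05, edgeR adjusted p = 0.0297), the lowest of its range up to 0.668. The untested HoxA genes were Hoxa2, Hoxa4, Hoxa5, Hoxa6 and Hoxa7, with at most 14 reads in a library. Hoxa2 had 1 read, in RES4 replicate 2, and Hoxa4 had 4 and 2 reads in RES4 and 2 and 14 reads in WTA CAFs. Hoxa5 had 2 and 4 reads in RES4 and 7 and 11 reads in WTA CAFs, Hoxa6 had 5 and 4 against 3 and 4, and Hoxa7 had 5 and 13 against 6 and 13. Split between numbers 5 and 6, a place chosen after the values were seen, HoxA summed to 11.4 and 8.44 CPM in RES4 and 11.6 and 21.5 CPM in WTA CAFs on the low side. On the high side the sums were 40.0 and 77.1 CPM in RES4 and 19.6 and 29.1 CPM in WTA CAFs.

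HoxD genes gave few reads, and none passed the filter. Hoxd8, a gene of the trunk, had 7 and 23 reads in RES4 and 2 and 9 reads in WTA CAFs, a ratio of pooled counts of 5.08 (exact 95% counting interval 2.48 to 11.2). Hoxd9, which acts in the trunk and limb, had 8 and 4 reads in RES4 and no read in WTA CAFs, and was at least 7.46-fold higher against 3 counts over the WTA group. Hoxd4 had 12 and 1 reads in RES4 and no read in WTA CAFs, at least 8.08-fold higher, and nearly all of its reads came from RES4 replicate 1. Without the low-count filter, edgeR called Hoxd4 (adjusted p = 0.00301), Hoxd8 (adjusted p = 0.00792) and Hoxd9 (adjusted p = 0.00501) higher. DESeq2 gave these genes adjusted p = 0.0487, 0.136 and 0.0486. Hoxd3 had 2 and 4 reads in RES4 and 2 and 3 reads in WTA CAFs, and Hoxd10 and Hoxd11 had at most 1 read in a library. In the GRCm38 annotation 62.3% of the exonic bases of Hoxd3 and 52.3% of those of Hoxd4 are shared with other genes on the same strand, each other included, so reads of this pair are uncertain. Hoxd11, Hoxd12 and Hoxd13 and their HoxA counterparts Hoxa11 and Hoxa13, genes of the outer parts of the developing limb, had 1 read in all 4 libraries together.

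By paralog number, called genes of the same number lay on opposite sides at 3 numbers. All called HoxB genes fell and all called HoxA and HoxC genes rose, so this restates the split by cluster. At number 4 Hoxc4 rose and Hoxb4 fell, at number 8 Hoxc8 rose and Hoxb8 fell, and at number 9 Hoxa9 rose and Hoxb9 fell. Of these, Hoxb4 and Hoxb8 passed the filter through the WTA libraries alone and Hoxc4 through the RES4 libraries alone. Hoxb4, Hoxc8, Hoxa9 and Hoxb9 each missed the threshold in some alternatives, so no pair was called in every alternative. Summed over clusters, number 4 stood at 16.7 and 7.71 CPM in RES4 and 5.95 and 14.1 CPM in WTA CAFs, so the groups overlapped. Number 9 summed to 42.2 and 44.8 CPM in RES4 and 31.2 and 37.5 CPM in WTA CAFs, a ratio of group means of 1.27. Number 5 summed to 14.8 and 9.91 CPM in RES4 and 4.46 and 5.55 CPM in WTA CAFs, and number 8 to 18.3 and 23.9 CPM in RES4 and 9.66 and 14.6 CPM in WTA CAFs, so both were higher in every RES4 library. Number 7 summed to 6.47 and 12.8 CPM in RES4 and 17.3 and 22.4 CPM in WTA CAFs and was lower in every RES4 library. Number 2 summed to 0.380 and 0.734 CPM in RES4 and 39.4 and 48.0 CPM in WTA CAFs. Number 10 summed to 110 and 104 CPM in RES4 and 27.3 and 37.5 CPM in WTA CAFs, which was 45.1% and 44.6% of the RES4 Hox reads and 16.8% and 16.6% of the WTA Hox reads.

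**Figure D4:**
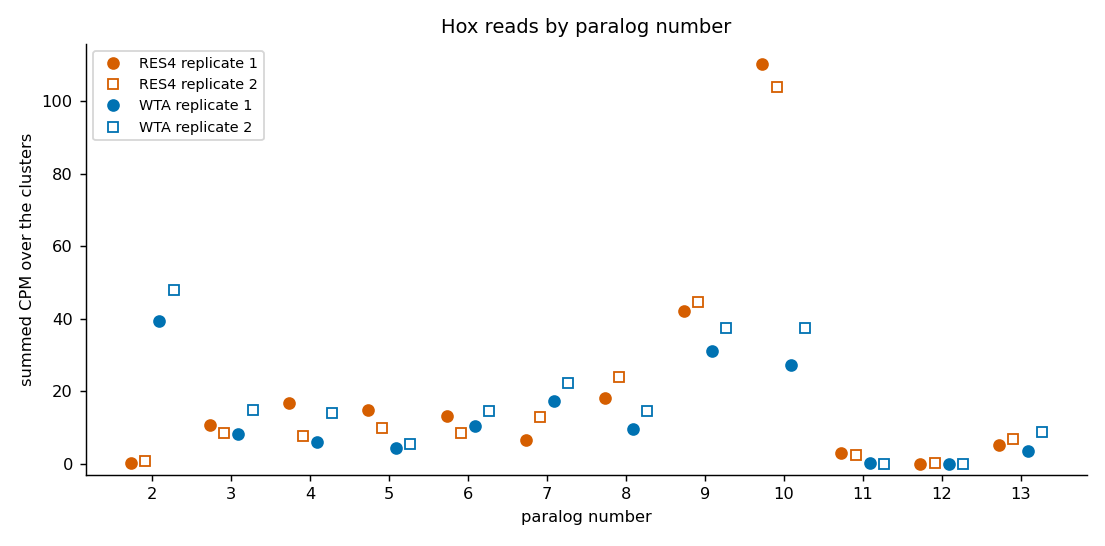
Summed CPM of the Hox genes of each paralog number from 2 to 13 over the 4 clusters, in every library; orange marks RES4 and blue WTA CAFs. Number 10 stands at 110 and 104 CPM in RES4 against 27.3 and 37.5 CPM in WTA CAFs, and number 2 at 0.380 and 0.734 against 39.4 and 48.0 CPM.

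Per length, the leading Hox genes also differed. On CPM per kilobase of exon (GENCODE, GRCm38; all 39 symbols matched), the order in RES4 CAFs was led by Hoxc10 at 44.7 and 32.1, ahead of Hoxa10 at 7.68 and 12.9. Hoxc9 (8.61 and 4.08), Hoxc8 (5.51 and 5.44) and Hoxb7 (2.96 and 5.23) came next, with ranges that overlapped from each to the next from Hoxa10 to Hoxc8. In WTA CAFs Hoxb2 at 11.3 and 13.8 CPM per kilobase led Hoxb7 at 10.3 and 13.1, which overlapped with it. Hoxc10 (8.31 and 8.38), Hoxb9 (7.22 and 8.11) and Hoxa10 (3.48 and 6.54) followed, with no overlap between neighbours from Hoxb7 to Hoxa10. By group means, Hoxc10, Hoxa10 and Hoxb7 were thus among the leading 5 Hox genes in both groups. The last of each 5 overlapped with genes ranked below it. Hoxb7 did so in RES4 CAFs, for example with Hoxc5 (4.56 and 2.73), and Hoxa10 in WTA CAFs, for example with Hoxc9 (2.75 and 4.85).

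The authors' deposited table lists 29 of the Hox genes and calls 1 higher, Hoxc10 (log2 fold change 2.17, adjusted p = 0.0567), and 2 lower, Hoxb2 (log2 fold change -6.90, adjusted p = 7.18e-06) and Hoxb8 (adjusted p = 0.0144). Over all 15879 genes of the authors' deposited table the called share was 8.5%, 4.89% higher and 3.61% lower. Its statistic equals, for 100% of the genes within rounding, the excess of the absolute log2 fold change over 1 divided by the SE, so those calls ask for more than a 2-fold change. The 3 genes are also among those called above.

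HOX proteins bind DNA with homeodomain partners of the PBX, MEIS and PKNOX families. All 9 of these genes were tested, with 1 higher, 2 lower and 6 not called in RES4 CAFs, where 29.4% of all genes tested were called, so the count is near that share. Meis1, a partner of Hoxa9 in leukaemia, had 88.3 and 96.5 CPM in RES4 and 23.3 and 23.7 CPM in WTA CAFs, a log2 fold change of 1.97 ± 0.36 (edgeR adjusted p = 0.00123). In edgeR Meis1 missed the threshold when WTA replicate 1 or 2 was left out (log2 fold change 1.90 and 1.95), so no gene of the list was then called higher. Fewer of all genes tested were called in those fits as well. Pknox2 had 3.04 and 4.77 CPM in RES4 and 31.2 and 63.1 CPM in WTA CAFs, a log2 fold change of -3.58 ± 0.54 (edgeR adjusted p = 3.33e-04). Meis3 had 22.8 and 3.67 CPM in RES4 and 46.8 and 62.6 CPM in WTA CAFs, a log2 fold change of -2.05 ± 0.62 (edgeR adjusted p = 0.0248). The RES4 replicates of Meis3 were far apart, and its log2 fold change ran from -3.88 to -1.27 over the alternatives, in all of which it was called.

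Polycomb proteins keep Hox clusters silent outside their domain, and Trithorax proteins keep them active. Of 28 such genes tested, 4 rose, 4 fell and 20 were not called, with a median log2 fold change of -0.13. Beside 15.5% higher and 13.9% lower over all genes tested, these counts do not set the list apart. On leaving out either WTA replicate, fewer of these genes were called, and fewer of all genes tested as well. Ezh2, the methyltransferase of Polycomb complex PRC2, had 49.5 and 40.0 CPM in RES4 and 154 and 187 CPM in WTA CAFs, a log2 fold change of -1.93 ± 0.32 (edgeR adjusted p = 6.24e-04). Its relative Ezh1 had 61.6 and 59.8 CPM in RES4 and 23.8 and 26.6 CPM in WTA CAFs, a log2 fold change of 1.27 ± 0.37 (edgeR adjusted p = 0.0223). Ring1, of complex PRC1, had a log2 fold change of -3.13 ± 0.53, and the Trithorax subunit Ash2l one of -1.12 ± 0.33 (edgeR adjusted p = 7.17e-04 and 0.0218). Ezh2 and Ring1 were called in all 9 alternatives, and Ezh1 and Ash2l missed the threshold in edgeR when either WTA replicate was left out (adjusted p up to 0.326 and 0.291).

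Several lists of cell type markers also differed between the groups. Over all genes tested, 15.5% were called higher and 13.9% lower, or 29.4% together. All 11 fibroblast markers had reads, 10 of 10 tested were higher, and their summed level was 7463 to 7933 CPM in RES4 and 2622 to 3190 CPM in WTA CAFs, where Lum had no read and Dcn 3 and 1 reads. Of 10 Schwann cell and neural crest markers 9 had reads, and of 7 tested 1 was higher and 6 lower. They summed to 246 to 268 CPM in RES4 CAFs, nearly all of it Pmp22, and to 1232 to 1388 CPM in WTA CAFs. Foxd3 had no read in RES4 CAFs and 47 and 59 reads in WTA CAFs. Pericyte and smooth muscle markers summed to 413 to 518 CPM in RES4 and 536 to 639 CPM in WTA CAFs, and of 6 tested 2 were higher (Myh11 and Rgs5), 1 was lower (Cspg4) and 3 were not called. Cspg4 had 19.8 and 12.8 CPM in RES4 and 281 and 193 CPM in WTA CAFs. Without it, left out after its values were seen, the direction of the sum turned, at 393 and 505 CPM in RES4 and 358 and 343 CPM in WTA CAFs. Epithelial markers summed to 46.0 to 63.9 CPM in RES4 and 9.26 to 9.66 CPM in WTA CAFs, with Epcam and Cdh1 at 0. Krt19 made up 45.7 and 63.9 CPM of the RES4 sums, while Krt14 had no read in RES4 CAFs and 12 and 15 reads in WTA CAFs. Adipocyte markers summed to 51.0 to 62.4 CPM in RES4 and 1.85 to 2.97 CPM in WTA CAFs, with Adipoq at 0. Leukocyte, endothelial and skeletal muscle markers reached at most 18.4, 5.95 and 8.08 CPM in any library, with Ptprc, Tie1 and Myod1 at 0. Of 3 tested leukocyte markers 1 was higher, Lyz2, and 2 were not called, a count near the share over all genes tested. Lyz2 had 7.61 and 7.71 CPM in RES4 and 0.496 and 1.18 CPM in WTA CAFs. Some called markers, among them Dcn, Lyz2, Foxd3 and Myh11, passed the filter through 1 group alone, so that a difference was built into their selection. The part of these marker differences in those of the Hox genes was not tested.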

How the data were processed

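Polyadenylated RNA of mouse CAFs was sequenced in 4 libraries. The authors deposited whole-number read counts per gene symbol. The submitters' processing notes name the build mm9 and the tools HTSeq 0.7.2, TopHat2 2.1.1, Picard 1.62, bcl2fastq 2 and DESeq2. Which tool did what, with which settings and gene models, was not given in the sources used. The authors' deposited table also holds log2 fold changes, p-values, a statistic (score) and mean normalized signal per group, which was not used.

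The test on counts was edgeR's quasi-likelihood F test (edgeR 4.0.16, R 4.3.3; filterByExpr with minimum count 10; TMM; 1 term, the group; RES4 minus WTA; Benjamini-Hochberg over all genes tested, threshold 0.05). The filter asked for 2.94 CPM in 2 libraries. SE is the absolute log2 fold change over the root of the F statistic. Alternatives were relative log expression factors, library totals, no filter, a block for the replicate number, DESeq2 1.42.0 and leaving out 1 library at a time. The procedure was tested on simulated counts.

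The Hox genes, lists and tests were chosen with earlier results of these data known. The Hox genes with reads are described, and some results are not reported here; of each list, up to 4 called members of smallest adjusted p are named. Exonic lengths, overlaps and promoters are of GRCm38, not mm9, and were matched by symbol; the annotation the authors counted on may differ.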

Additional observations from a re-analysis of the deposited data

How the results depend on the processing

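Over the 9 alternatives, Hoxb2, Hoxb8, Hoxc4 and Hoxc10 kept their direction and their call. With relative log expression factors the same 5 higher and 5 lower Hox genes were called as with TMM, and with library totals alone Hoxb6 was added to them. Over all 12001 genes tested, these settings called 1861 and 1736 higher and 1698 and 2150 lower. Without the low-count filter 9 Hox genes were called higher and 7 lower, of 33 tested, beside 2163 and 2142 of all 17243 genes tested. With DESeq2 7 Hox genes were higher and 3 lower, of 26 tested, beside 1742 and 1666 of all 13307 genes tested. Leaving out 1 library gave 2 to 5 Hox genes higher and 2 to 4 lower. Over all genes it gave 1078 to 2024 higher and 951 to 2323 lower, against 1857 and 1668 with all libraries. There, the lone library of a group is taken to spread as the other group does. The log2 ratio of summed HoxB CPM ran from -2.67 to -2.26 and that of HoxD from 2.36 to 3.53 without 1 library, against -2.43 and 2.89 with all. Uncalled genes changed sign as follows: Hoxc13 (0.02) to -0.12 with library totals alone and -0.036 without the filter, and from -0.51 to 0.79 without 1 library; Hoxc6 (0.56) from -0.51 to 1.17 and Hoxb3 (-0.09) from -0.45 to 0.29 without 1 library. The cause was not tested. Nothing in the labels pairs the replicates by number; the replicate differences of the groups correlated at r = 0.22 across genes. With the replicate block 6 Hox genes were called higher and 6 lower, adding Hoxa10 and Hoxb6, beside 2257 and 2267 of all 12001 genes tested. At these depths a gene at 1 CPM has 3 to 6 reads.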

Other observations

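Noncoding genes within the clusters had few reads. Hotair, a long noncoding RNA between Hoxc11 and Hoxc12, had 16 and 6 reads in RES4 and 1 and 1 reads in WTA CAFs, a ratio of pooled counts of 20.5 (exact 95% counting interval 5.04 to 180). Among 6 such genes in the count table, the microRNA genes Mir10a and Mir196b included, 5 had reads and 0 passed the filter. Mir10a, between Hoxb3 and Hoxb4, had 1 read, in WTA replicate 2. Mira, between Hoxa6 and Hoxa7, had 4 and 4 reads in RES4 and 1 and 4 in WTA CAFs. Gm53, between Hoxb9 and Hoxb13, had 1 and 7 reads in RES4 and none in WTA CAFs, where the neighbouring Hoxb9 was lower. With its RES4 counts taken as observed, Gm53 was at least 4.97-fold higher against 3 counts over the WTA group.

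Of 19 genes flanking the clusters, 14 were tested, with 1 higher, 3 lower and 10 not called in RES4 CAFs, near the 29.4% called over all genes tested. Calcoco1, beside HoxC, had 299 and 189 CPM in RES4 and 78.0 and 74.7 CPM in WTA CAFs, a log2 fold change of 1.67 ± 0.30 (edgeR adjusted p = 0.00117). Snx11, beside HoxB, had 10.3 and 16.5 CPM in RES4 and 36.9 and 49.7 CPM in WTA CAFs, a log2 fold change of -1.69 ± 0.44 (edgeR adjusted p = 0.0113), and missed the threshold on leaving out WTA replicate 2 (adjusted p = 0.113, the highest of a range from 2.27e-04). Jazf1, on the HoxA side, had a log2 fold change of -2.41 ± 0.51 and Lnp, beside HoxD, one of -1.03 ± 0.30 (edgeR adjusted p = 0.00350 and 0.0225). Lnp missed the threshold when either WTA replicate was left out (edgeR adjusted p up to 0.353), while Jazf1 was called in all 9 alternatives. The other tested neighbours, among them Skap2 and Mtx2, were not called.

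Of 19 transcription factors that are relatives or inducers of Hox genes, 7 were tested, with 1 higher, 2 lower and 4 not called, beside 15.5% higher and 13.9% lower over all genes tested. Otx1, a gene of the head in front of the Hox domain, had 1 and 1 reads in RES4 and 18 and 27 reads in WTA CAFs (edgeR adjusted p = 0.00547). Gbx2, of the anterior hindbrain, had 1 and 0 reads in RES4 and 16 and 24 reads in WTA CAFs (edgeR adjusted p = 0.00591). Cdx1, an inducer of Hox genes in the trunk, had 16 and 9 reads in RES4 and 0 and 6 reads in WTA CAFs (edgeR adjusted p = 0.0193). Otx1 and Gbx2 passed the filter through the WTA libraries alone and Cdx1 through the RES4 libraries alone, so that a difference was built into their selection. With DESeq2 0 of the 3 were called. Without RES4 replicate 2 Otx1, Gbx2 and Cdx1 did not pass in edgeR, and Cdx1 also did not without RES4 replicate 1 or WTA replicate 1.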
